A study of Macaca mulatta with 6 samples.

Results

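Chemokines are small secreted proteins that guide leukocytes along gradients by binding G protein-coupled receptors on those cells, and they are sorted into the CC and CXC families by the spacing of their first cysteines. The 10 chemokine genes examined were CCL2, CCL7 and CCL8, which attract monocytes, CXCL9, CXCL10 and CXCL11, which share the receptor CXCR3 and are induced by interferons, the inflammatory CC chemokines CCL3, CCL5 and CCL18, and CXCL12, a ligand made in resting tissue that binds CXCR4 and ACKR3. These roles are known mainly from human and mouse, and in the retina Müller glia, microglia and the pigment epithelium are known sources of CCL2. Members were every probe set that the platform annotation assigns to 1 of the 10 symbols, which gave 19 of 52024 probe sets and covered 9 genes. No probe set of CCL7 was analysed here.

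The tissue was the temporal retina of 3 male rhesus macaques aged 8 to 10 years, dissected without pigment epithelium. The treated retinas lay on the side of an intraorbital optic nerve given 15 Gy by gamma knife surgery 24 h earlier, and the control retinas were those of the opposite, untargeted nerve of the same animals. The eyeball on the treated side received 3 Gy and that on the control side 1 Gy, so the control retinas were not free of radiation, and both eyes shared anaesthesia and head frame. Each of the 6 retinas, 3 treated and 3 control, was hybridized to its own 1-color Affymetrix Rhesus Macaque Genome Array, and so few arrays limit how precise any value can be. Values are log2 of the MAS 5.0 signal, a summary of the probes of a probe set on a single array, so a difference of 1 is a doubling. Levels of different probe sets are not on a common scale, so bright and dim describe the signal and not the abundance of a transcript. Every difference is treated minus control within a pair of equal replicate number, taken as the retinas of the same monkey. It was fitted by limma over all probe sets with Benjamini-Hochberg adjustment, and "rose" is kept for an adjusted p under 0.05.

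Array medians of the log2 signal were 6.98, 6.44 and 6.75 in treated retinas and 7.03, 6.74 and 6.69 in control retinas. The treated array of replicate 2 stood apart, with the lowest median and 29.7% of its probe sets under 5, where the other 5 arrays had 22.6% to 25.9%. Without replicate 2, limma called 166 probe sets higher and 56 lower over the whole array, against 57 and 1 with all pairs, and it still called 2 chemokine probe sets, CCL2 at 2.72 and CCL8 (MmugDNA.3158.1.S1_at) at 1.80. The gain was not particular to replicate 2. Without replicate 3 the counts were 109 higher and 26 lower, with 3 chemokine probe sets, and without replicate 1 they were 17 and 0. The photoreceptor gene SAG, which encodes the rod arrestin, stood between 15.25 and 15.53 in treated retinas and between 15.44 and 15.54 in control retinas, among the brightest probe sets. All 5 photoreceptor and Müller cell genes measured were below 0 by their brightest probe set, between −0.45 and −0.13, where 55.5% of all named genes were above 0. Their other probe sets ran from −1.09 to 0.35. Before adjustment (p under 0.05), limma and the methods' paired t-test each gave 3 as lower, where they gave 3.01% and 2.84% of named genes. After adjustment limma called 0. The 4 pigment epithelium genes had a summed linear signal of 682 to 1707 in treated and 1310 to 1378 in control retinas. The standard error of a difference fell steeply with signal, since its median was 0.867 for probe sets under a mean log2 signal of 5, 0.481 between 5 and 7, 0.216 between 7 and 9 and 0.115 at 9 and over. Of the 19 chemokine probe sets, 5 lay in the lowest of these ranges, 10 in the next, 3 in the third and 1 in the highest.

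CCL2 and CCL8 rose in the treated retinas, and CXCL10, CCL18 and a second CCL8 probe set were higher on every treated array than on every control array without passing the adjusted test. CXCL12 was below 0 by each of its 3 probe sets. At an adjusted p under 0.05 (limma), 2 of the 19 chemokine probe sets were called higher and 0 lower, where 0.11% of all probe sets were called higher and 0.00192% lower. Before adjustment, taking p under 0.05, limma gave 7 as higher, where 2.97% of all probe sets were, and 1 as lower, where 3.77% were. These 7 probe sets belonged to 6 genes. With each array centred on its median, which moved the median of all probe sets to 0.059, the unadjusted counts over the array were 1845 higher and 1143 lower, against 1544 and 1962 as deposited, and 8 chemokine probe sets passed as before. On 5 probe sets of 4 genes every treated array lay above every control array, a separation seen in 3.11% of all probe sets, and 0 showed the opposite separation, seen in 3.53%. The difference was above 0 for 13 of the 19, where 45.4% of all probe sets were above 0, and its median was 0.33, against −0.038 over all probe sets. All 3 pairs were higher for 8, where 13% of all probe sets were, and lower for 2, where 16.1% were. A log2 difference above 1 was seen for 8, where 4.87% of all probe sets had one, and below −1 for 2, where 6.57% had one. These shares cover all probe sets, of which 26707 had no gene symbol, whereas every member has one. By the brightest probe set of each named gene, 55.5% stood above 0, with a median of 0.032. All 3 pairs were higher for 19.3% of named genes, and limma gave 5.02% as higher before adjustment and 0.205% after it. In bulk tissue a larger number of producing cells cannot be told apart from more RNA per cell.

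**Figure D1:**
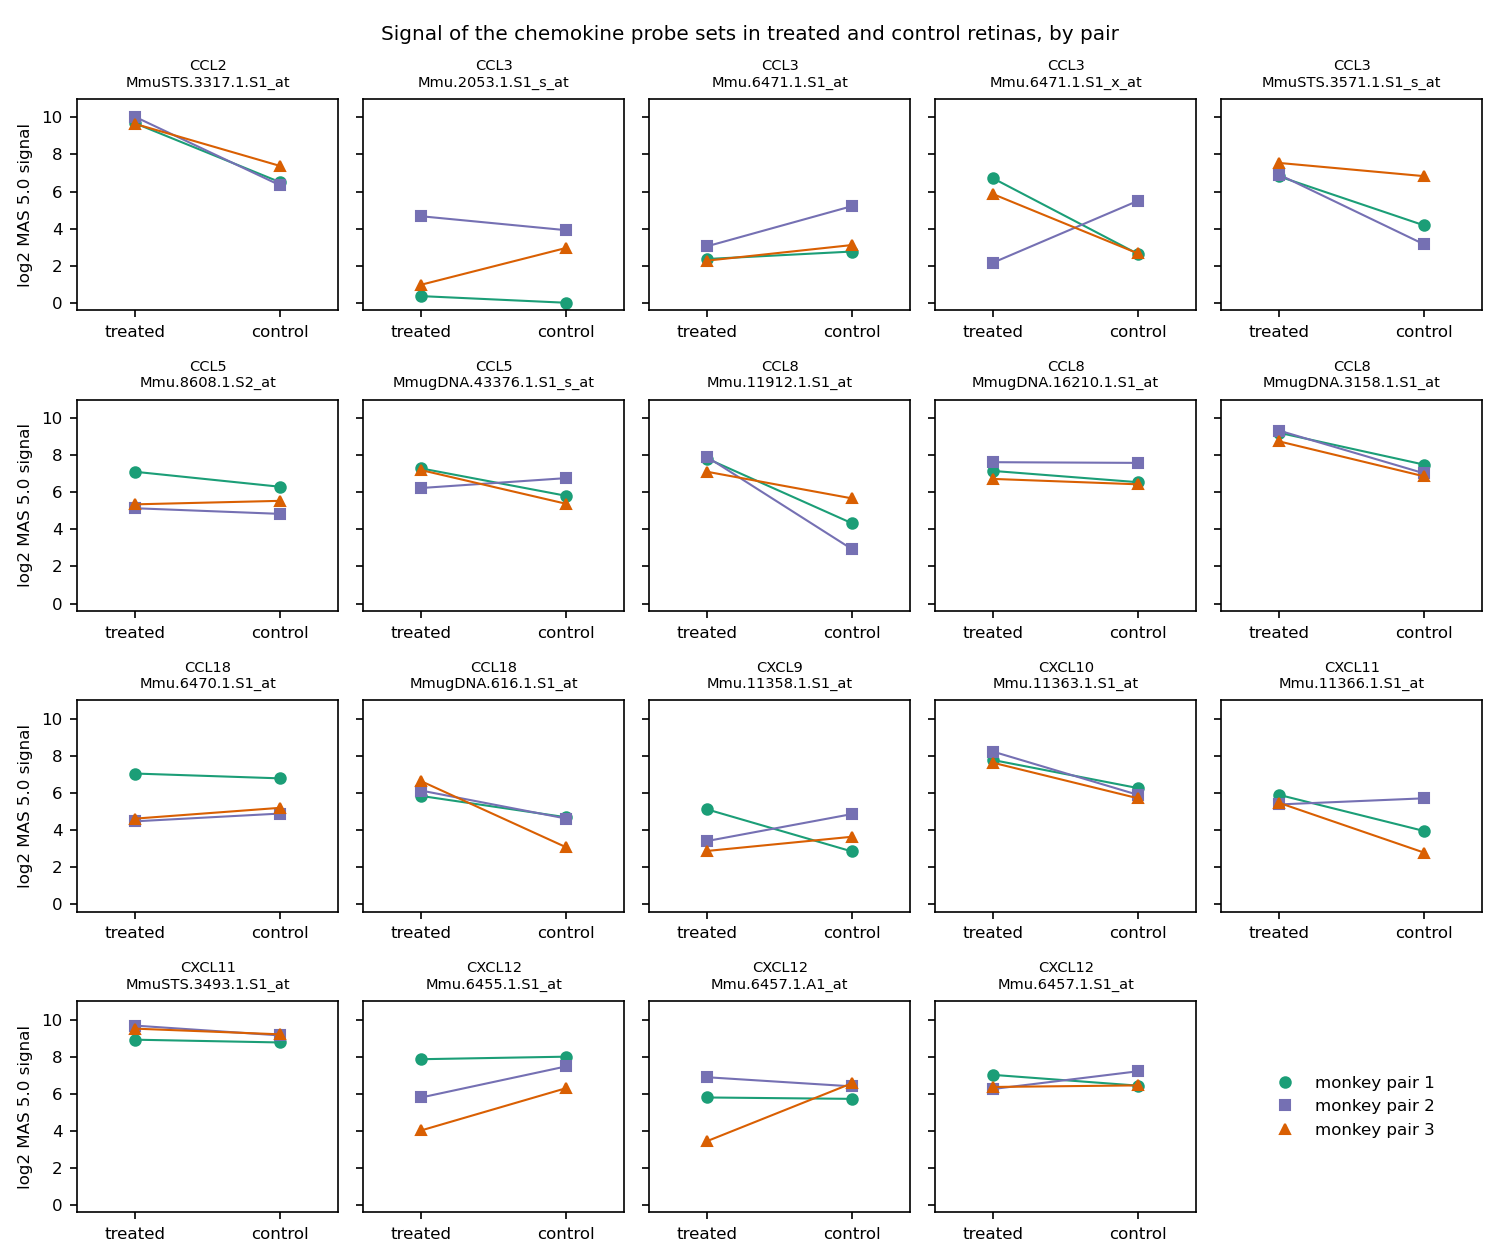
Log2 MAS 5.0 signal of the 19 chemokine probe sets, 1 panel each, with treated retinas on the left and control retinas on the right. Lines join retinas of equal replicate number (replicates 1 to 3), taken as those of the same monkey. CCL2, the CCL8 probe sets MmugDNA.3158.1.S1_at and the dimmest, CXCL10 and the CCL18 probe set MmugDNA.616.1.S1_at have every treated value above every control value.

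CCL2 (MCP-1), the main ligand of the monocyte receptor CCR2, was measured by the single probe set MmuSTS.3317.1.S1_at. Its log2 signal was 9.68, 10.03 and 9.65 in the treated retinas of replicates 1 to 3, against 6.51, 6.34 and 7.38 in their control retinas. The groups were 2.27 apart at their nearest values, and the treated retinas lay closer to each other (SD 0.21, n = 3) than the control retinas did (SD 0.56, n = 3). The differences of the pairs were 3.18, 3.69 and 2.27, which the fit summarised as 3.04 (SE 0.27, adjusted p = 0.0164 from limma). On the linear scale this was 8.25-fold, with a 95% interval of 5.36 to 12.7. Replicate 3 had both the brightest control retina and the smallest difference. Without replicate 1 the difference was 2.98 and the adjusted p from limma was 0.0660, so the call needed that pair while the size hardly moved. The call was also lost without the pairing (adjusted p = 0.164), without the trend of limma (0.854) and with log2 signals below 5 raised to 5 (0.749).

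CCL8 (MCP-2), another monocyte attractant, had 3 probe sets that differed in size. By its brightest, MmugDNA.3158.1.S1_at, the log2 signal was 9.21, 9.33 and 8.75 in treated retinas, against 7.49, 7.03 and 6.86 in control retinas. This probe set rose by 1.97 (SE 0.19, adjusted p = 0.0238 from limma), or 3.91-fold with a 95% interval of 2.87 to 5.34, and its pairs differed by 1.72, 2.30 and 1.88. The pairs lay close to each other, with the treated group 1.25 above the control group at the nearest values. Without replicate 1 its difference was 2.09 and its adjusted p was 0.133 (limma), and the call was lost under the same alternatives as that of CCL2 (adjusted p = 0.401 without the pairing).

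By its dimmest probe set, the log2 signal of CCL8 was 7.82, 7.90 and 7.11 in treated retinas, against 4.33, 2.93 and 5.67 in control retinas. The groups did not overlap, and the control values spread widely (SD 1.37, n = 3) at a level where signals scatter. Its difference of 3.30 was the largest of the 19 but carried an SE of 0.67 (adjusted p = 0.338 from limma), with pairs at 3.49, 4.97 and 1.44. By MmugDNA.16210.1.S1_at it was 7.15, 7.63 and 6.72 in treated retinas, against 6.55, 7.59 and 6.43 in control retinas. Here the groups overlapped and the difference was 0.31 (95% interval −0.35 to 0.97, adjusted p = 0.825 from limma), although it was above 0 in 3 of 3 pairs. The interval of this probe set and that of MmugDNA.3158.1.S1_at, 1.52 to 2.42, did not meet. The mean of the 3 probe sets gave 1.86 (SE 0.32) and did not pass (adjusted p = 0.193 from limma).

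**Figure D2:**
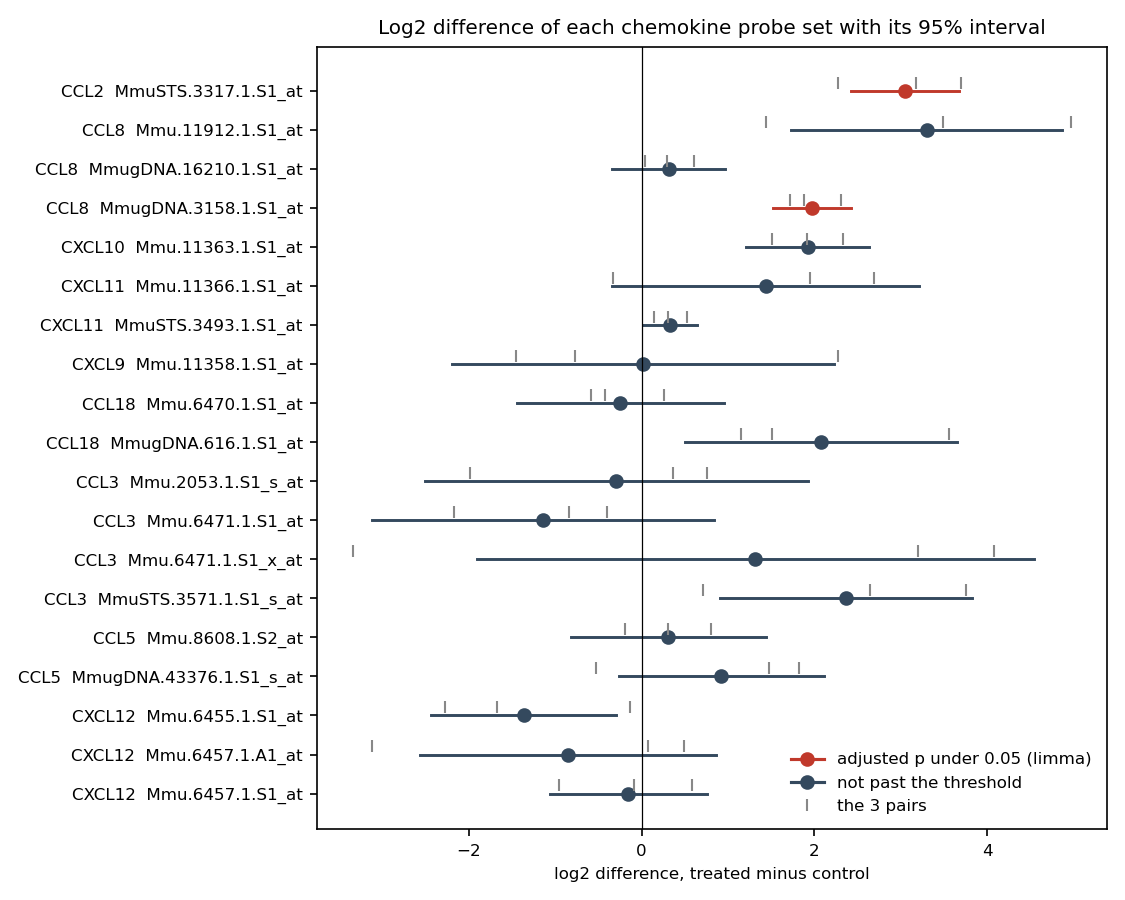
Log2 difference (treated minus control, horizontal axis) of each chemokine probe set with its 95% interval from limma, grouped by role, and the 3 pairs as grey ticks. The red intervals of CCL2 (2.42 to 3.67) and of the CCL8 probe set MmugDNA.3158.1.S1_at (1.52 to 2.42) passed an adjusted p under 0.05, and all 3 CXCL12 points lie left of 0.

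The 3 ligands of CXCR3, a receptor of activated T and NK cells, had no probe set that passed the test. CXCL10 (IP-10), by its single probe set, had a log2 signal of 7.78, 8.23 and 7.63 in treated retinas, against 6.27, 5.90 and 5.72 in control retinas. The groups were 1.37 apart, and the spread was small on both sides (SD 0.31 in treated and 0.28 in control retinas, n = 3 each). Its difference was 1.92 (SE 0.31), a fold of 3.79 with a 95% interval of 2.31 to 6.20, and the pairs gave 1.51, 2.33 and 1.92. This did not pass after adjustment (adjusted p = 0.126 from limma), neither over all 3 pairs nor with any pair left out, where the adjusted p lay between 0.107 and 0.517.

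CXCL11 (I-TAC), which binds CXCR3 and ACKR3, had a bright and a dim probe set. The bright one, MmuSTS.3493.1.S1_at, stood at 8.92, 9.68 and 9.52 in treated retinas, against 8.77, 9.15 and 9.21 in control retinas. Its groups overlapped, yet each treated retina was above its own control, by 0.15, 0.53 and 0.31, and the fit gave 0.33 (SE 0.13, 95% interval 0.016 to 0.64, adjusted p = 0.734 from limma). The dim one stood at 5.90, 5.39 and 5.47 in treated retinas, against 3.95, 5.72 and 2.79 in control retinas. The treated values were tightly placed and the control values were not, and replicate 2 ran against the other pairs with −0.33, so that the difference of 1.43 had an interval from −0.34 to 3.21 (adjusted p = 0.752 from limma).

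CXCL9 (MIG), the ligand of this group most closely tied to interferon gamma, was dim by its only probe set. Its log2 signal was 5.12, 3.41 and 2.88 in treated retinas, against 2.85, 4.87 and 3.64 in control retinas. The pairs went both ways, by 2.27, −1.45 and −0.77. The difference of 0.016 had a 95% interval from −2.19 to 2.23 (adjusted p = 0.998 from limma), so a change as large as that of CXCL10 was not detectable by this probe set.

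CCL18, in human a product of macrophages and dendritic cells, was called by neither of its 2 probe sets, which disagreed in sign. By MmugDNA.616.1.S1_at the log2 signal was 5.84, 6.13 and 6.64 in treated retinas, against 4.69, 4.63 and 3.08 in control retinas. These groups did not overlap, with a difference of 2.07 (SE 0.68, adjusted p = 0.683 from limma) and pairs at 1.15, 1.51 and 3.56. By the other probe set it was 7.05, 4.48 and 4.62 in treated retinas, against 6.79, 4.89 and 5.20 in control retinas. Replicate 1 was highest on both sides, and the difference was −0.25 (95% interval −1.45 to 0.95, adjusted p = 0.934 from limma).

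CCL3 (MIP-1α), a ligand of CCR1, gave differences of both signs from 4 probe sets. Primate genomes hold near-identical copies of CCL3, and the endings _s_at and _x_at mark probe sets that may share sequence with other transcripts, so its signal is uncertain. By MmuSTS.3571.1.S1_s_at it stood at 6.81, 6.91 and 7.54 in treated retinas, against 4.18, 3.15 and 6.83 in control retinas. The groups overlapped only through the control retina of replicate 3, by 0.018, and the difference was 2.37 (SE 0.63, above 0 in 3 of 3 pairs, adjusted p = 0.567 from limma). The other 3 were dim. By the one that ends in _x_at the pairs gave 4.08, −3.34 and 3.20, a difference of 1.32 with an SE of 1.39. By the one with neither ending the treated retinas stood at 2.36, 3.05 and 2.27, against 2.76, 5.22 and 3.11 in control retinas, a difference of −1.14 (SE 0.85). By the remaining one, which ends in _s_at, the values ran from 0.36 to 4.67 in treated retinas and from 0 to 3.92 in control retinas, with a difference of −0.29 (SE 0.95). None of these 3 passed the test (adjusted p between 0.793 and 0.961, limma), and the probe set with neither ending was below 0 in 3 of 3 pairs while MmuSTS.3571.1.S1_s_at was above 0 in 3 of 3.

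CCL5 (RANTES), made by T cells and platelets, was above 0 by both probe sets and called by neither. By MmugDNA.43376.1.S1_s_at it stood at 7.29, 6.23 and 7.20 in treated retinas, against 5.81, 6.77 and 5.38 in control retinas, with replicate 2 against the other pairs. The difference was 0.92 (SE 0.51, adjusted p = 0.753 from limma). By the other probe set it stood at 7.11, 5.14 and 5.35 in treated retinas, against 6.30, 4.84 and 5.54 in control retinas, a difference of 0.31 (SE 0.49, adjusted p = 0.906 from limma). The groups overlapped on both probe sets.

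CXCL12 (SDF-1), which holds CXCR4-bearing cells in tissue, lay below 0 by its 3 probe sets, unlike the other members with several. By the probe set with the largest difference the log2 signal was 7.87, 5.80 and 4.03 in treated retinas, against 8.004, 7.48 and 6.30 in control retinas. The groups overlapped, but each treated retina was below its own control, by −0.14, −1.68 and −2.28, and the fit gave −1.36 (SE 0.46, 95% interval −2.44 to −0.29, adjusted p = 0.698 from limma). By the one that ends in A1_at it was 5.80, 6.89 and 3.45 in treated retinas, against 5.73, 6.40 and 6.57 in control retinas. Replicate 3 alone set the sign of this difference of −0.85 (SE 0.74), which was 0.28 without it. By the brightest of the 3 it was 7.02, 6.26 and 6.37 in treated retinas, against 6.44, 7.22 and 6.46 in control retinas, a difference of −0.15 (SE 0.39) that was 0.25 without replicate 2. The adjusted p of the last 2 was 0.818 and 0.947 (limma).

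**Figure D3:**
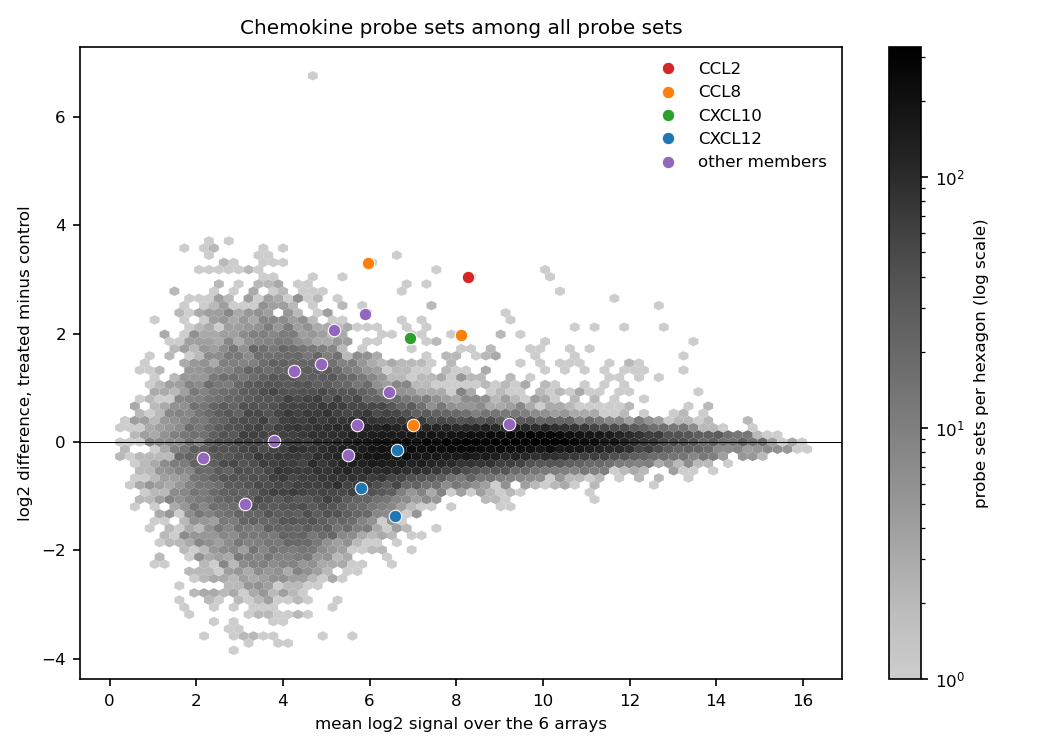
Log2 difference (treated minus control) against the mean log2 signal over the 6 arrays for all 52024 probe sets in grey, darker where more probe sets lie (log scale), with the chemokine probe sets in color. CCL2, at a difference of 3.04, and the CCL8 probe set at 1.97 lie above the dense grey band, which widens toward dim signals, where most of the other members lie.

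With p under 0.05 before adjustment and a fold above 2, the methods' paired t-test took 3 chemokine probe sets as higher, where it took 0.654% of all probe sets, and 0 as lower, where it took 0.598%. They were those of CCL2, of CCL8 by MmugDNA.3158.1.S1_at and of CXCL10. Over the whole array this test, run without detection calls, took 340 probe sets as higher and 311 as lower. The study reported a selection at these thresholds that was nearly all upward, so that selection was not reproduced here. The study named several of the chemokines from these same arrays, so their direction here is not independent evidence. After Benjamini-Hochberg adjustment this test called 0 of all probe sets.

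In the order of protein-coding genes in assembly T2T-MMU8v2.0, CCL2, CCL7, CCL11, CCL8, CCL13 and CCL1 follow one another, CCL18 lies next to CCL3, and CXCL11, CXCL10 and CXCL9 follow one another. CCL11 (eotaxin), CCL13 and CCL1, named for this position after their values were seen, stood at 1.30 (SE 0.83), 0.49 (SE 0.80) and 0.16 (SE 0.33). None of these passed (adjusted p = 0.768, 0.910 and 0.932, limma), and the other CCL1 probe set stood at −0.41 (SE 0.89). Among other named genes brighter than the array median, those whose 3 pair differences lay nearest to CCL2 were SERPINA3, an acute phase protease inhibitor, at a root mean square distance of 0.301 (pairs 2.80, 4.05 and 2.25), LOC697829 at 0.520 and SLPI, a secreted inhibitor of leukocyte proteases, at 0.791. Nearest to the CCL8 probe set MmugDNA.3158.1.S1_at were IGFLR1, a receptor for an insulin-like growth factor family ligand, at 0.0435 (pairs 1.77, 2.32 and 1.83), TYMS, the thymidylate synthase of DNA synthesis, at 0.160 and IFI30, a lysosomal reductase, at 0.179. These likenesses rest on 3 pairs and were picked out of 15694 probe sets, and they are descriptions.

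Of the other chemokines, 25 genes were measured and taken by the probe set with the highest mean signal. Of these 13 stood above 0, with a median of 0.033, against 55.5% of all named genes above 0 and a median of 0.032. None of the 25 passed limma after adjustment, where 0.205% of named genes were called higher and 0.00708% lower. Before adjustment (p under 0.05), 1 was higher, where 5.02% of named genes were, and 0 were lower, where 3.01% were. The methods' t-test before adjustment gave 0 in either direction, where it gave 4.21% of named genes as higher and 2.84% as lower. The gene higher by limma was CXCL6, which attracts neutrophils, at 0.48 (SE 0.13, adjusted p = 0.600 from limma), with 9.30, 10.15 and 10.19 in treated retinas, against 8.68, 9.96 and 9.55 in control retinas. Each treated retina was above its own control while the groups overlapped, and the second CXCL6 probe set stood at −0.40 (SE 0.28). CXCL8, which also attracts neutrophils, stood at 0.81 (SE 0.49) and CCL20, the ligand of CCR6, at −0.91 (SE 0.54).

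Chemokine receptors were mostly dim. Of 17 measured, 9 stood above 0 with a median of 0.12, and 0 passed limma after adjustment, while before adjustment both limma and the methods' t-test gave 1 as higher and 1 as lower, where limma gave 5.02% and 3.01% of named genes and the methods' t-test 4.21% and 2.84%. These counts were near those shares. ACKR3, the scavenger receptor of CXCL12 and CXCL11, was the higher one, with 9.41, 9.66 and 8.13 in treated retinas, against 8.34, 8.69 and 7.66 in control retinas. Each pair was higher, by a fitted 0.84 (SE 0.17, adjusted p = 0.341 from limma). The lower one was ACKR4, a scavenger of CCL19, CCL21 and CCL25, at −2.70 (SE 0.82, adjusted p = 0.656 from limma), whose log2 signal stayed under 5 on all 6 arrays, and CCR1, a receptor of CCL3 and CCL5, stood at −1.31 (SE 0.74). The receptors of the members, added to this account after their values were seen, gave no call. CCR2, the receptor of CCL2, was under 5 on every array, at 1.78, 2.47 and 4.64 in treated and 4.45, 1.90 and 3.10 in control retinas. CXCR3 stood at 0.12 (95% interval −1.03 to 1.26) and CXCR4, the signalling receptor of CXCL12, at −0.32 (95% interval −1.01 to 0.38).

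Genes that act upstream of inflammatory chemokine genes stood above 0 in 8 of 14 cases, with a median of 0.26. None passed limma after adjustment, while before adjustment both limma and the methods' t-test gave 3 as higher, where limma gave 5.02% of named genes and the methods' t-test 4.21%, and 0 as lower. IRF1, a transcription factor induced by interferon gamma, had 8.59, 8.64 and 7.89 in treated retinas, against 7.61, 7.12 and 7.17 in control retinas. These groups did not overlap, and its difference was 1.07 (SE 0.23, adjusted p = 0.368 from limma). The others by limma were IFNAR2, a chain of the type I interferon receptor, at 0.79 (SE 0.18) and JAK2, a kinase of cytokine receptors, at 0.42 (SE 0.13). The methods' t-test gave a different set of 3, with IL1B by its brightest probe set in place of JAK2. Of the cytokine genes in this list, described after their values were seen, IFNB1 was under 5 on all arrays and IFNG stood at −0.40 (SE 0.71). TNF, a cytokine that induces CCL2, had 5.68, 4.99 and 4.19 in treated retinas, against 4.92, 1.81 and 2.67 in control retinas, a difference of 1.82 (SE 0.81, adjusted p = 0.748 from limma). IL1B, another inflammatory cytokine, was counted by its brightest probe set at 0.45 (SE 0.34), while its other 2 probe sets stood at 2.17 (SE 0.52, adjusted p = 0.496 from limma) and 2.22 (SE 0.78, adjusted p = 0.716 from limma). Of 10 genes of chemokine receptor signalling, 7 stood above 0 with a median of 0.25, 0 passed limma after adjustment, and before it limma gave 2 as higher, where it gave 5.02% of named genes, and the methods' t-test 1, where it gave 4.21%. Those 2 were RAC2, a GTPase of blood cells, at 1.11 (SE 0.42) and ARRB2, an arrestin that desensitises chemokine receptors, at 0.41 (SE 0.15), and ELMO1, a partner of the exchange factor DOCK2, stood at 0.22 (SE 0.12).

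**Figure D4:**
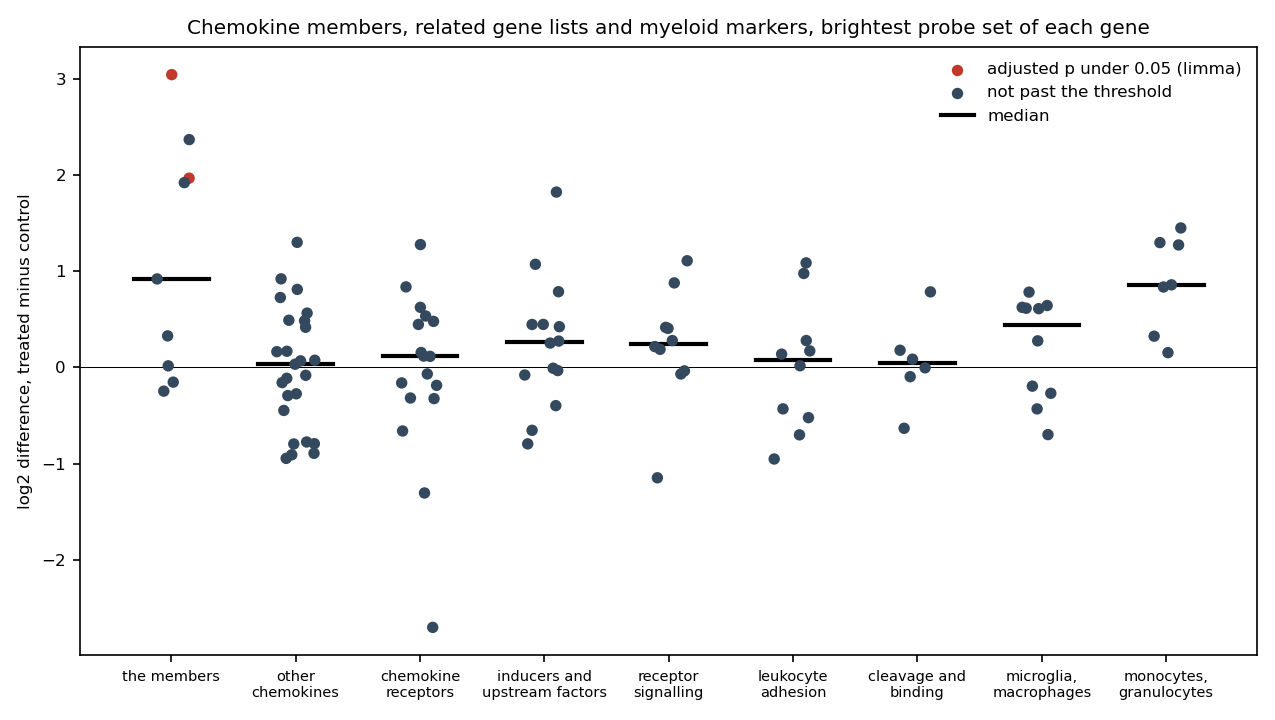
Log2 difference (treated minus control) of the chemokine members, of the 6 related gene lists and of 2 lists of myeloid markers, 1 point per gene by its brightest probe set, with the median of each list as a black bar. The red points of CCL2 and CCL8 stand at 3.04 and 1.97, and the medians of the related lists lie between 0.033 and 0.26.

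Markers of cells that could bring or make chemokines were compared on the same arrays. All 7 monocyte and granulocyte markers measured stood above 0 by their brightest probe set (VCAN, at 0.15, had others between −2.09 and 0.80), with a median of 0.86, and their summed linear signal was 4342 to 12479 in treated retinas and 2067 to 3877 in control retinas. Much of that sum was LYZ, the lysozyme of monocytes and granulocytes, with 13.50, 12.17 and 11.87 in treated retinas, against 11.63, 11.30 and 10.80 in control retinas (difference 1.27, SE 0.18, adjusted p = 0.0745 from limma). Of 10 microglia and macrophage markers, 6 stood above 0 by their brightest probe set, with a sum of 2832 to 3164 in treated and 2376 to 2817 in control retinas. By these probe sets AIF1 at 0.78 and TREM2 at −0.70 marked the range. Other probe sets of these genes ran from −0.69 for P2RY12 to 1.59 for CD68, whose brightest stood at −0.19. Of 8 T and NK cell markers listed, 4 were measured, and CD3D, CD3E, CD3G and CD2 were not. Of the 4 measured, 2 stood above 0, and NKG7 was under 5 on all arrays. Their sums overlapped (168 to 247 in treated and 209 to 232 in control retinas). None of these markers passed limma after adjustment. Before adjustment limma gave 4 of the microglia markers, 3 of the monocyte and granulocyte markers and 0 of the T and NK cell markers as higher, and the methods' t-test gave 2, 0 and 0, where limma gave 5.02% of named genes and the methods' t-test 4.21%. GFAP, the filament of reactive astrocytes and Müller glia, was called by its brighter probe set, at 2.14 (SE 0.23, adjusted p = 0.0303 from limma), and not by the other, at 0.099 (SE 0.13). The astrocyte markers S100B, at 0.17, and ALDH1L1, at 0.12, were not called. The part of these markers in the chemokine differences was not tested.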

How the data were processed

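RNA of the 6 retinas was hybridized to 1-color Affymetrix arrays by the authors, who used GeneSpring to compute MAS 5.0 signals and deposited them as log2. The submitters' processing notes name MAS5, with its version not given in the sources used here. MAS 5.0 scales each array to a common mean: the linear mean, trimmed by 2% at each end, was 505.3 to 505.8 on the 6 arrays. Detection calls were not used here, so the depth of a dim probe set is known only from its signal, and 98 to 229 probe sets per array stood at the floor of 0.

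For each of 52024 probe sets, treated minus control was estimated in R 4.3.3 by limma 3.58.1 (lmFit, then eBayes using a trend), and replicate number entered as a block, since the methods pair both retinas of a monkey. The sample labels give only replicate numbers, and equal numbers were taken as the retinas of the same monkey. Deviations from the group means correlated at 0.357, 0.137 and 0.161 within numbers. Between different numbers they correlated at −0.243 to 0.104. The highest of these, treated 2 with control 3, was close to the 0.137 of replicate 2, so the values bear out its pairing only weakly. P-values were adjusted by Benjamini-Hochberg over all probe sets. Intervals cover 95%. The members and gene lists were chosen with earlier results of these data known. Symbols came from the platform annotation, updated by gene identifier (98.6% found). Lists use the probe set with the highest mean signal. Named were all members, the 3 genes with the smallest p in each related list, and the 3 nearest in pattern to each called member. Other genes (markers, receptors of members, neighbours, interferons) were named after their values were seen. No sequence is shown, as no sequence table was used here. In simulated data with 52024 probe sets, changes of log2 1 were recovered by the paired fit in 33% of cases and changes of log2 2 in 83% (100 probe sets each), with 10 false calls. These changes were placed only on probe sets with a mean log2 signal of at least 6. The rates therefore do not hold for the dimmer chemokine probe sets. Simulated spreads were drawn, with normal noise, from the variance prior with trend of the same fit. The rates and false calls thus presuppose that prior and cannot check it, and on the real values limma without trend called 0 probe sets higher. Alternatives were no pairing, no trend, other scalings, a filter, a floor, the paired t-test and leaving out each pair. Figures used matplotlib 3.10.9.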

Additional observations from a re-analysis of the deposited data

How the results depend on the processing

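The calls of CCL2 and CCL8 needed the pairing and the variance prior with trend. With no replicate block, and so without the pairing, 0 probe sets were called higher, 0 lower and 0 of the chemokine probe sets, and CCL2 had an adjusted p = 0.164 and CCL8 (MmugDNA.3158.1.S1_at) 0.401 from limma. The same counts of 0, 0 and 0 came from limma without trend, with log2 signals below 5 raised to 5, and from the methods' paired t-test after Benjamini-Hochberg adjustment, whereas the fit as reported called 57 higher and 1 lower. Before adjustment (p under 0.05) the chemokine probe sets past the threshold were 8 as reported and 3 by the methods' t-test. Quantile normalization called 2 probe sets lower. With a pair left out, the counts ran from 17 to 166 higher, 0 to 56 lower and 0 to 3 for the chemokines, with the lowest values without replicate 1, and CCL8 by its dimmest probe set passed without replicate 3 (4.23, adjusted p = 0.0347). The cause was not tested.

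Directions turned only in members that were not called. Leave-one-out values ran from −0.81 to 0.55 for the dim CCL3 probe set that ends in _s_at, from −0.067 to 3.64 for the one that ends in _x_at, from −1.11 to 0.75 for CXCL9, from −1.52 to 0.28 for the CXCL12 probe set that ends in A1_at and from −0.52 to 0.25 for the brightest CXCL12 probe set. With signals below 5 raised to 5, the brighter CCL18 probe set stood at 0.019, and the mean of both CCL18 probe sets was 0.91. Of 179 member values under the alternatives, 162 kept their direction and side of the threshold. The signal limits the dim members most.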

Other observations

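Leukocytes that follow chemokines out of vessels use adhesion molecules and integrins. Of 10 such genes measured, 6 stood above 0 with a median of 0.078, against 0.032 over all named genes, and 0 passed limma after adjustment, while before adjustment (p under 0.05) limma gave 1 as higher and 0 as lower and the methods' t-test 0 and 1. Over all named genes limma gave 5.02% and 3.01%, and the methods' t-test 4.21% and 2.84%, so 1 of 10 was near the background. ITGB2, the shared chain of the leukocyte integrins, had a log2 signal of 7.38, 7.28 and 6.95 in treated retinas, against 6.57, 5.65 and 6.46 in control retinas. The groups did not overlap, with a difference of 0.98 (SE 0.35, adjusted p = 0.716 from limma), whereas the lowest of its 4 probe sets stood at −0.33. SELPLG, the ligand of P-selectin on leukocytes, ran the other way, with 6.64, 6.43 and 6.09 in treated retinas, against 7.51, 6.87 and 6.88 in control retinas (difference −0.70, SE 0.31, adjusted p = 0.748 from limma). ITGAM, an integrin chain of myeloid cells, stood at −0.43 (SE 0.25).

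Of 6 genes whose proteins cleave or hold chemokines, 3 stood above 0 and 0 passed limma after adjustment, while before adjustment both limma and the methods' t-test gave 1 as higher and 0 as lower, against the same shares of named genes and 55.5% above 0. MMP2, a gelatinase that can cut CCL7 and CXCL12, had 9.21, 8.43 and 8.02 in treated retinas, against 8.30, 7.82 and 7.19 in control retinas. Each pair was higher, by a fitted 0.79 (SE 0.17, adjusted p = 0.410 from limma), and the second MMP2 probe set was at −2.47. MMP8, a collagenase of neutrophils, stood at −0.63 (SE 0.69) and SDC1, a heparan sulphate proteoglycan, at −0.096 (SE 0.15) by its brightest probe set. The other SDC1 probe sets ran from −0.016 to 0.91.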
